A study of Mus musculus with 12 samples.

Results

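The genes described here make up the NF-kB pathway and its inflammatory targets: 42 genes chosen by name, 28 of them pathway components and 14 of them cytokine, chemokine and adhesion targets, out of 21887 protein-coding genes of the mouse gene table. NF-kB is a family of transcription factors whose dimers are held in the cytoplasm by IkB proteins. A kinase complex, activated through receptors of the TNF, Toll-like and interleukin-1 families, marks IkB for destruction, and the freed dimers enter the nucleus and switch on cytokine, chemokine and adhesion genes together with their own inhibitors. In monocytes the cytokine RANKL uses this route to start osteoclast formation, and macrophages use it in inflammation. MAX is the partner that MYC needs to bind E-box DNA, and it also pairs with MXD, MNT and MGA proteins.

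Both proteins were located by ChIP-seq in RAW264.7, a transformed mouse line of monocytes and macrophages. The treatments were none, RANKL (50 ng/ml), the BET bromodomain inhibitor I-BET (500 nM) and the combination of the 2 agents at these doses, each given for 4 h. I-BET compounds keep BET proteins off acetylated histones. Each antibody has 1 peak list per treatment, so no difference between treatments has a replicate check and none carries a p-value. The treatment protocol speaks of replicates, but the labels name 1 library each. Peak lists hold no transcript levels, so the labelled cell type was not checked against marker genes. A gene was counted as having a peak when a listed peak shared at least 1 bp with its extent (GRCm38, the mm10 assembly) plus 10 kb on each side. The lists for MAX differed in length, with 8839 peaks for untreated cells, 10889 for RANKL, 36785 for I-BET and 6307 for the combination. Those for MYC had 312, 299, 136 and 11 entries respectively. The labels do not give the read depth, and a gene without a listed peak is not shown to be unbound. Ranks below order the peaks of 1 list by the authors' score, with 1 the highest, and are not compared between lists of different length.

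RefSeq promoter windows (250 bases before to 50 after a start, GRCm38.p6) were at hand for 33 of the 42 genes, as 41 windows. Those of Nfkb1, Relb, Nfkbiz, Ikbkb, Map3k8, Tab1, Ccl2, Ccl4 and Ccl5 were not. A single promoter met the rule of holding the canonical E-box CACGTG and lying under a MAX peak in each of the 4 treatments, that of Tnfaip3, which encodes the ubiquitin-editing inhibitor A20. It is printed with 3 promoters picked after their values were seen: Birc2 (an inhibitor-of-apoptosis ubiquitin ligase, under MAX in each treatment), Rel (the c-Rel subunit, under MAX in each treatment with no E-box of either form) and Nfkbia (IkB alpha, under MAX in all treatments but the combination). Each line runs 5′ to 3′ on the minus strand of the genome and ends at the last base before the most upstream start. Capitals mark CACGTG, its variant CACGCG and matches to the NF-kB consensus, on either strand. The stretches are chr10:19015411-19015660 for Tnfaip3, chr9:7837058-7837307 for Birc2, chr11:23770970-23771219 for Rel and chr12:55492648-55492897 for Nfkbia.
Tnfaip3: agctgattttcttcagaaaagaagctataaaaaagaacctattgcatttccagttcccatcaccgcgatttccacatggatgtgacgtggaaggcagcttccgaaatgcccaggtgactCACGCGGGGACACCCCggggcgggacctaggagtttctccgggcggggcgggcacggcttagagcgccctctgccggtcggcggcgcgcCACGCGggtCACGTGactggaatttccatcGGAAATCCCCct
Birc2: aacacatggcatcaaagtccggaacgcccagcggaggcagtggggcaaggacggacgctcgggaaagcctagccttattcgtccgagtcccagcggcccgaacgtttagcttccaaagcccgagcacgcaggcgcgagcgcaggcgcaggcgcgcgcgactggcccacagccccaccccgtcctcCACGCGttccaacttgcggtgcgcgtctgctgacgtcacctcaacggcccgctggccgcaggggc
Rel: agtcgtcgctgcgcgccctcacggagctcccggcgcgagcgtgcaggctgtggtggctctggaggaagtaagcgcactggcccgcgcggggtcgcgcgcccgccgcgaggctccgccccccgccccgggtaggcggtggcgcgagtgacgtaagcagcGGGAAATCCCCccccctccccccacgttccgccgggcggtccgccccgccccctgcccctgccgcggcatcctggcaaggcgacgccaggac
Nfkbia: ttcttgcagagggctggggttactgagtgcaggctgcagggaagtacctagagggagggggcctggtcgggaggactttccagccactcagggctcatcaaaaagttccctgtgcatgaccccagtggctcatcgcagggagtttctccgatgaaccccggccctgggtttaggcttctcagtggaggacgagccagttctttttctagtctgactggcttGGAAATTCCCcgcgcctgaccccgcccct

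In the Tnfaip3 stretch CACGTG began 33 bases before the start, between a CACGCG 42 bases before it and the NF-kB match GGAAATCCCC 12 bases before it. A further CACGCG and the match GGGACACCCC abut each other at 131 and 125 bases. Birc2 held CACGCG at 65 bases and no NF-kB match. Rel held the overlapping matches GGGAAATCCC and GGAAATCCCC at 92 and 91 bases, and Nfkbia held GGAAATTCCC at 29 bases. A match to letters is a description of the sequence and does not show a bound site.

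Across the 41 windows of these genes the NF-kB consensus was more frequent than over all promoters, and the general E-box was less frequent. CACGCG was near its share of all promoters, and CACGTG was in too few windows here for its share to be compared. The NF-kB consensus was found in 17 windows (41.5%), against 8.46% of the 32851 promoter windows of all genes. Windows of pathway components had it in 12 of 30 cases and windows of targets in 5 of 11. CACGTG was present in 2 windows (4.88%), those of Tnfaip3 and Ptgs2, against 7.15% of all windows, and CACGCG in 4 (9.76% against 9.27%). The general form CANNTG, which includes CACGTG, was present in 22 windows (53.7% against 72.3%). Among the windows under an untreated MAX peak the canonical E-box was found in 902 of 5022 over all genes and in 1 of 15 here (6.67%). CACGCG was found in 26.9% and 13.3% of these windows, and the NF-kB consensus in 504 of the 5022 and in 33.3%. The 15 windows belong to 14 genes, since Birc2 has a pair of starts. The members were chosen as NF-kB genes, several of which are known to carry NF-kB sites, so the frequency of those matches is no independent finding.

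**Figure D1:**
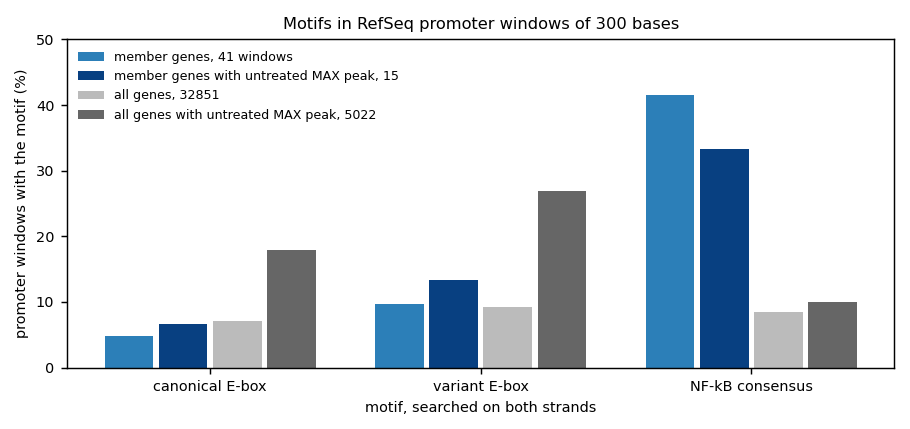
Share of RefSeq promoter windows (y axis, %) that hold the canonical E-box CACGTG, its variant CACGCG or the NF-kB consensus (x axis) for the NF-kB genes and for all genes, each overall and restricted to windows under an untreated MAX peak. The NF-kB consensus stands at 41.5% of the windows of these genes and 8.46% of all windows. The CACGTG bar of 6.67% for the MAX-covered windows of these genes stands for 1 window of 15.

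Few genes had a MYC peak in any list, and the share in this set was near that of all genes. No MYC peak lay in any of the 42 windows in untreated cells, with RANKL or with the combination, where 2.05%, 2.02% and 0.0640% of all protein-coding genes had one. The I-BET list placed a MYC peak near 1 gene, Traf2, against 0.434% of all genes. Traf2 is an adaptor of TNF receptors. This peak was 55 bp wide, ranked 81 of 136 and lay 5131 bp beyond the gene (chr2:25552071-25552125), where no MAX list had a peak. Of the 136 peaks of that MYC list 105 were under 100 bp, and without those peaks no gene of the set had MYC. Within 1 kb of a gene end no gene of the set had MYC in any list (all genes 1.05%, 1.04%, 0.0685% and 0.0183%), and the same held among the higher-scoring peaks, those above the median rank of each list (0.982%, 0.946%, 0.187% and 0.0320%).

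MAX was listed near most of these genes, and their number differed between the lists. In untreated cells 25 of 42 genes had a MAX peak (59.5%), against 37.4% of all protein-coding genes. With RANKL 30 had one (71.4%, against 42.3%), with I-BET 41 (97.6%, against 65.0%) and with the combination 17 (40.5%, against 30.0%). Within 1 kb of a gene end a peak was listed for 20, 25, 38 and 15 genes in the same order, against 23.7%, 27.8%, 50.3% and 18.6% of all genes. Of the pathway components 20, 22, 28 and 12 of 28 had a peak in these treatments. Of the targets 5, 8, 13 and 5 of 14 had one, so that in untreated cells the targets stood at 35.7%, near the level of all genes, and the components at 71.4%. The genes have a median length of 18395 bp, the components 28080.5 bp and the targets 5230.5 bp, against 17169 bp for all genes, and a longer gene has a wider search window. The part of length in the difference between components and targets was not tested.

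**Figure D2:**
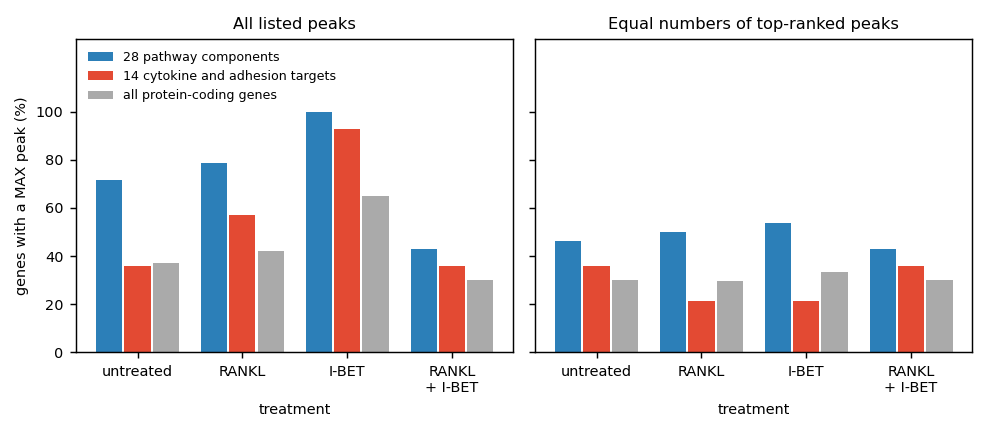
Share of genes with a MAX peak (y axis, %) by treatment for the 28 pathway components, the 14 targets and all protein-coding genes, with all listed peaks on the left and with the 6307 top-ranked peaks of each list on the right. With all peaks the components go from 71.4% in untreated cells to 100% with I-BET and 42.9% with the combination, and with equal numbers of peaks they lie between 42.9% and 53.6%.

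These treatment differences went with the length of the lists. When each MAX list was limited to its 6307 top-ranked peaks, 18 genes had a peak without treatment, 17 under RANKL, 18 under I-BET and 17 under the combination, against 30.1%, 29.8%, 33.6% and 30.0% of all genes. The components then stood at 13, 14, 15 and 12 of 28 and the targets at 5, 3, 3 and 5 of 14. The order of the treatments seen with all peaks was therefore not present among equal numbers of top-ranked peaks. Among the higher-scoring peaks of each list, whose number again follows its length, the genes were 15, 15, 37 and 9, against 22.8%, 26.9%, 56.4% and 17.6% of all genes. With 1 library for each treatment, a treatment and its library cannot be told apart.

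MAX peaks in all 4 treatments were listed for 17 genes, 40.5% of the set against 26.7% of all genes. A further 6 genes (Nfkb1, Nfkbia, Bcl3, Chuk, Traf5 and Map3k7) were listed in all treatments but the combination (14.3%, against 7.57% of all genes). Another 7 had a peak with RANKL and with I-BET only (16.7%, against 5.94%). Relb and Tnip2 had one in untreated cells and with I-BET only (4.76%, against 2.41%). For 9 genes a peak was listed with I-BET alone (21.4%), near the 19.1% of all genes. Ccl5, a T cell and monocyte chemokine, had no MAX peak in any list, as was the case for 34.8% of all genes. Without the I-BET list, 10 of the genes would have no MAX peak (23.8%, against 53.9% of all genes).

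**Figure D3:**
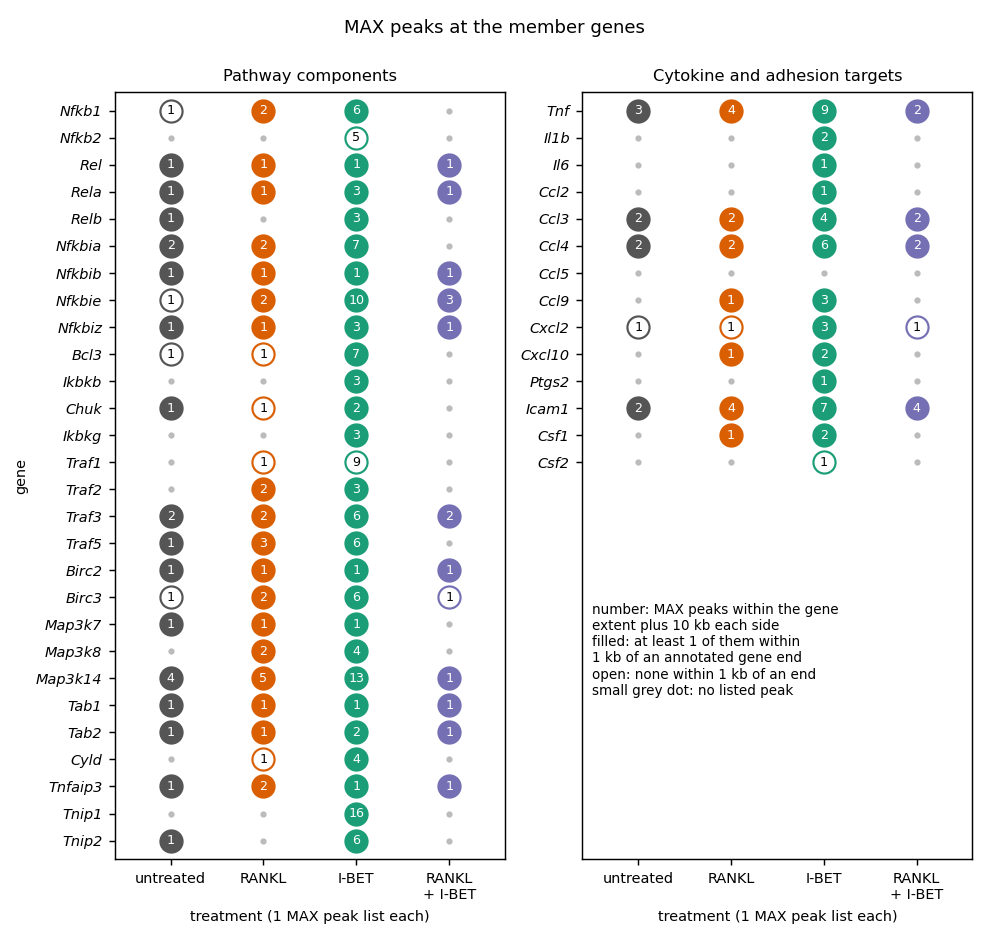
Number of MAX peaks (figures in the circles) in the extent plus 10 kb of each NF-kB gene (rows) in each treatment (columns). Filled circles have at least 1 peak within 1 kb of a gene end, and open circles have none there. The I-BET column holds a number for all genes but Ccl5. The column of the combination holds 17 genes, each of which is also listed in the other treatments.

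Among the NF-kB subunits, Rel and Rela were listed in every treatment and the others were not. The Rel peak lay just before the start in untreated cells, from -763 to -9 bp, at rank 4349 (755 bp wide), and covered the start in the other lists, at rank 1501 with RANKL (820 bp), 7094 with I-BET (1720 bp) and 3627 with the combination (706 bp). Rela, which encodes the p65 subunit, had its peak at the start at ranks 7378, 10452, 2380 and 5838 of the same lists. The RANKL peak of Rela was thus near the bottom of its list of 10889. Nfkb1 encodes p105, the precursor of p50. It had an intragenic peak (chr3:135608159-135608619 in untreated cells) at ranks 5677, 8755 and 6939, with none in the combination, and a peak at its upper end (chr3:135691441-135691828) with RANKL, at rank 9371, and with I-BET, at rank 7762. Relb, a subunit of the non-canonical pathway, had a peak of 283 bp at its end in untreated cells, at rank 8268 of 8839. It had 3 peaks with I-BET, of which those at ranks 3235 and 22119 lay in the flank, nearest to Clasrp. Nfkb2, its p100 partner, was listed with I-BET only, with 5 peaks, the best at rank 12228 of 36785.

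All 5 genes of the IkB family had a MAX peak in untreated cells and with RANKL, and 3 of them with the combination. The shares of all genes under these conditions were 37.4%, 42.3% and 30.0%. Nfkbiz, which encodes the nuclear IkB zeta, had the best-ranked untreated peak of all 42 genes, at its upper end (chr16:55838443-55839069, rank 739), and ranked 1125, 1097 and 2161 in the other lists. Nfkbib (IkB beta) ranked 4169, 6313, 11315 and 1715 at an end that it shares with the deacetylase gene Sirt2. Nfkbia had a pair of peaks in untreated cells, at rank 1997 just inside the gene (chr12:55491749-55492186) and at rank 6367 on the start. It again had a pair with RANKL, with the better at rank 3265, and 7 peaks with I-BET, with the best at rank 3024. With the combination Nfkbia had no peak, and it was the only gene of the set with an untreated peak among the top 4419 that was not listed there. Bcl3 carried a peak in the flank (chr7:19830621-19831508 over the lists) at ranks 8449, 7478 and 7699 of the untreated, RANKL and I-BET lists. With I-BET it had 7 peaks, among them 1 over its promoter window at rank 11164. Nfkbie (IkB epsilon) was counted in every treatment through peaks nearer to its neighbours: the untreated one, at rank 3374, was nearest to the chaperone gene Hsp90ab1, and another at its end, listed with RANKL at rank 3054 and with the combination at rank 2172, was nearest to Slc35b2. At the start of Nfkbie itself a MAX peak was listed with I-BET alone.

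Of the 8 kinases and their partners 5 had MAX without treatment, 6 under RANKL, 8 under I-BET and 3 under the combination. All protein-coding genes stood at 37.4%, 42.3%, 65.0% and 30.0% in the same order. The IkB kinase subunits Ikbkb and Ikbkg, the latter the regulatory subunit NEMO, had MAX peaks with I-BET only, 3 each. Chuk, the other catalytic subunit, had a peak on its start in untreated cells at rank 6578 (chr19:44107406-44107711) and with I-BET at rank 3382, but not with RANKL, where it was counted through a peak at rank 7009 nearest to Erlin1. Tab1 and Tab2, which bind the TAK1 kinase, kept a peak at a gene end in every treatment. Tab1 ranked 1238, 2364, 3898 and 4090, and Tab2 ranked 3348, 3315, 2021 and 6093. Map3k7, the TAK1 gene itself, ranked 6356, 10806 and 6784, with none in the combination. Map3k14 encodes NIK, the kinase of the non-canonical pathway. Its peaks numbered 4 (untreated), 5 (RANKL), 13 (I-BET) and 1 (the combination). The peak left in the combination lay on the start (chr11:103267148-103267684, rank 5658), and 2 of the 4 untreated peaks were nearer to Spata32. Map3k8, the kinase TPL2, had peaks with RANKL, the better at rank 7720, and with I-BET.

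Of the 6 genes for TRAF adaptors and cIAP ligases, 4 had MAX in untreated cells and 6 with RANKL. Over all genes the shares were 37.4% and 42.3%. Birc2 had a peak on its start in every treatment, at ranks 1686, 2213, 703 and 1281, between 697 and 1078 bp wide. This same region lies within 10 kb of Birc3 and was counted for both. Birc3 had a peak on its own start with RANKL (rank 9632) and I-BET (rank 5907) only. Traf3, which restrains NIK, had peaks in every treatment on its start, at ranks 7058, 4538, 5246 and 556, and in its flank at ranks 2282, 2597, 6154 and 2838. Traf5 ranked 7775 on its start in untreated cells and 10623 with RANKL, and had 2 more peaks with RANKL, one inside the gene at rank 5467 and another nearest to Rd3. Traf1 and Traf2 were listed with RANKL and with I-BET. Traf1 had 9 peaks with I-BET, none of them within 1 kb of a gene end.

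Of the negative regulators, Tnfaip3 alone was listed in every treatment. Its promoter, printed above, lay under a peak at rank 1287 in untreated cells (chr10:19015257-19015748), 5349 with RANKL, 3564 with I-BET and 1226 with the combination. A RANKL peak inside Tnfaip3 (chr10:19009127-19009532, rank 9709) was the only region of the set listed with RANKL alone. Tnip1, which encodes an A20-binding protein, had 16 MAX peaks with I-BET, the most of any gene in the set, and none in the other lists. Tnip2 had a peak near its start in untreated cells, at rank 8531 of 8839, and 6 with I-BET. Cyld, a deubiquitinase, had 1 flanking peak with RANKL at rank 7179 and 4 peaks with I-BET.

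Among the targets the peaks listed in every treatment belonged to Tnf, Ccl3, Ccl4, Cxcl2 and Icam1. Tnf, the prototype inflammatory cytokine, had 3, 4, 9 and 2 peaks, and the peak on its start was 803, 1038, 2342 and 595 bp wide in the order used above. Its flanking peaks in untreated cells and with RANKL were nearest to the neighbouring cytokine gene Ltb. Ccl3 and Ccl4 are adjacent genes for macrophage chemokines, and the same 2 regions were counted for both in each treatment: one over or just before the Ccl3 start, at ranks 6714, 8672, 10139 and 3228, and one in the flank, at ranks 2552, 7150, 11175 and 3307. Cxcl2, a neutrophil chemokine, had a flanking peak centred at -4976 bp from its start in untreated cells (chr5:90898731-90899115, rank 1666), and the same region ranked 3205, 14548 and 2309. A peak on the Cxcl2 start itself was listed with I-BET alone, at rank 11215. Icam1 is the adhesion molecule for leukocyte integrins. It had a peak before or over its start in every treatment, at best ranks 4852, 7780, 6046 and 2861, and a further region nearest to Icam5 at ranks 6868, 1263, 1070 and 3275.

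Apart from Ccl5, the other targets were listed with I-BET, and 3 of them also with RANKL. Il1b, Il6, Ccl2, Ptgs2 and Csf2 had MAX with I-BET only. Ptgs2 encodes the inducible cyclooxygenase. Its peak covered the start (chr1:150099627-150100357) at rank 4553, the best I-BET rank of these 5 genes. Il1b ranked 21570 of 36785 on its start, Il6 26549 from 48 bp after its start and Csf2 32191 in its flank, in the lower part of that list. The 3 with RANKL as well were Ccl9, a myeloid chemokine, Cxcl10, an interferon-inducible chemokine for T cells, and Csf1, the macrophage growth factor gene.

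**Figure D4:**
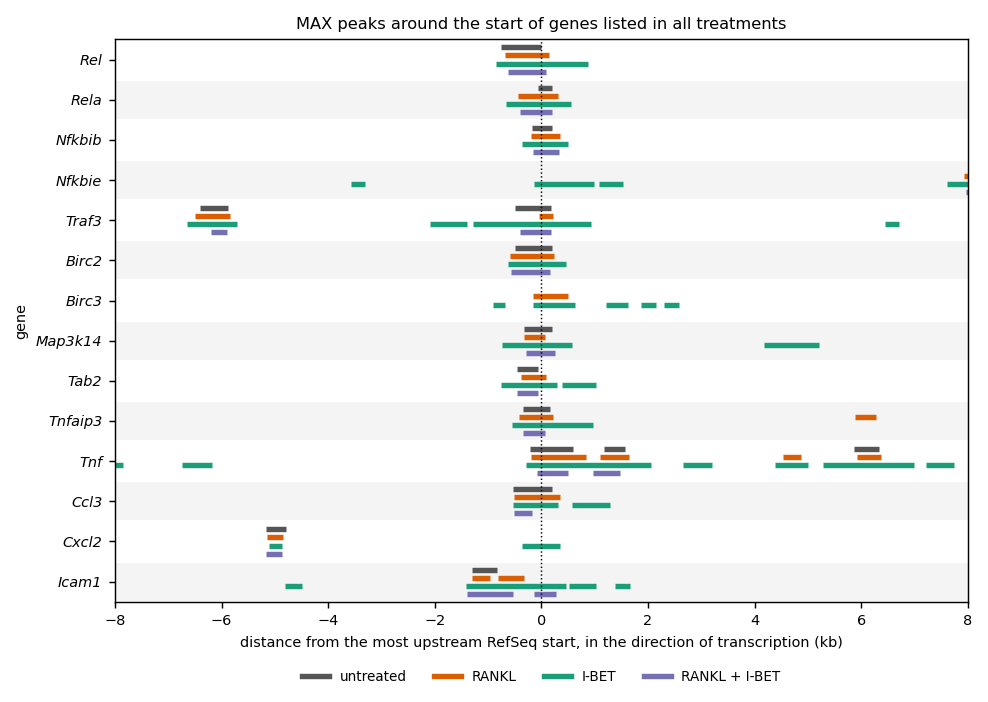
MAX peaks (bars) within 8 kb of the most upstream RefSeq start (x axis, kb along transcription) for genes listed in all 4 treatments that have a start in the table, with a row per gene and a colour per treatment. Of the 14 genes 7 (Rela, Nfkbib, Traf3, Birc2, Map3k14, Tnfaip3 and Tnf) have a bar over the start in each treatment, whereas the Cxcl2 bars shared by all lists sit about -4976 bp from the start and the I-BET bars are the widest in most rows.

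RANKL was set against untreated cells to describe MAX under osteoclast induction. A MAX peak was listed with RANKL and not in untreated cells for 7 genes, and the reverse held for 2. The 7 were Traf1, Traf2, Map3k8, Cyld, Ccl9, Cxcl10 and Csf1 (16.7% of the set, against 7.99% of all genes), and the 2 were Relb and Tnip2 (4.76%, against 3.07%). Traf1 had the best-ranked of the added peaks (chr2:34963374-34963961, rank 3994 of 10889), in the flank before its start. The best peaks of the others ranked 5823 for Traf2, 7173 for Cxcl10, 7179 for Cyld, 7720 for Map3k8, 7847 for Ccl9 and 10149 for Csf1. Those of Traf2, Cxcl10 and Csf1 included a peak that overlapped a promoter window. Relb and Tnip2 had ranked 8268 and 8531 of 8839 in untreated cells. With the exception of Traf1, the genes that differed therefore had peaks outside the 5444 top-ranked RANKL peaks or near the end of the untreated list. With 6307 peaks from each list, 3 genes were added (Traf1, Traf2 and Traf5, against 5.31% of all genes) and 4 were no longer listed (Nfkb1, Nfkbib, Ccl3 and Ccl4, against 5.56%). Among the higher-scoring peaks 3 were added (Traf1, Tnf and Icam1, against 7.36%) and 3 were no longer listed (Nfkbib, Ccl3 and Ccl4, against 3.25%). Counted as pairs of a peak and a gene, the peaks of the set sat lower in the RANKL list than those of genes at large. A peak shared by neighbouring genes thus counts more than once. Of the 52 pairs 18 were among the 5444 top-ranked peaks, against 7611 of the 14842 pairs over all genes (34.6% and 51.3%). In untreated cells the shares among the 4419 top-ranked were 48.6% and 50.8%.

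I-BET alone was set against the same untreated list. A MAX peak was listed with I-BET and not in untreated cells for 16 genes, and the reverse held for none (38.1% and 0 of the set, against 27.7% and 0.0959% of all genes). Added were 8 components (Nfkb2, Ikbkb, Ikbkg, Traf1, Traf2, Map3k8, Cyld and Tnip1) and 8 targets (Il1b, Il6, Ccl2, Ccl9, Cxcl10, Ptgs2, Csf1 and Csf2). With 6307 peaks from each list 6 genes were added (7.91% of all genes) and 6 were no longer listed (4.39%), and among the higher-scoring peaks 22 were added (33.8%) and none was removed (0.128%). The mean number of peaks per gene was 4.17 in the set with I-BET and 0.833 in untreated cells, against 2.07 and 0.557 for all genes. Of the 175 pairs of a peak and a gene with I-BET, 57 lay within 1 kb of a gene end (32.6%, exact 95% interval 25.7 to 40.1), against 21 of 35 pairs in untreated cells (42.1 to 76.1%). Over all genes the shares were 31.6% and 46.0%, so the direction of this difference was that of genes at large. The intervals cover counting error only, and genes with overlapping windows share peaks. Of the 171 merged MAX regions of the set 120 were listed with I-BET alone, and 27 of these lay at a gene end. Regions of all genes were not counted in this way, and the I-BET list was the longest, with 36785 peaks. The count is therefore not shown to be particular to the set. Where 1 peak per list marked a region shared by all 4 lists, 14 of the 16 regions were widest with I-BET. Their median widths were 1148 bp with I-BET, 540 bp in untreated cells, 669 bp with RANKL and 443 bp with the combination. Over all peaks of each list the medians were 480, 443, 483 and 415 bp in the same order. Widths at shared regions were not measured for all genes, so the difference is not shown to be particular to the set.

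The combination was set against RANKL alone and against I-BET alone, 2 comparisons that share the combination list. Against RANKL, 13 genes were no longer listed and none was added (31.0% and 0 of the set, against 13.6% and 1.35% of all genes). The 13 were Nfkb1, Nfkbia, Bcl3, Chuk, Traf1, Traf2, Traf5, Map3k7, Map3k8, Cyld, Ccl9, Cxcl10 and Csf1, which include all 7 genes listed with RANKL and not in untreated cells. Of the 1748 such genes overall 1316 (75.3%) were likewise absent from the combination. Against I-BET, 24 genes were no longer listed and none was added (57.1% and 0, against 35.0% and 0 of all genes). With 6307 peaks from each list, 4 genes were not listed again and 4 were added against RANKL (5.12% and 5.31% of all genes). Against I-BET they were 6 and 5 (7.86% and 4.27%). Among the higher-scoring peaks 7 were removed and 1 was added against RANKL (10.9% and 1.60%), and 28 and 0 against I-BET (38.9% and 0.0685%). With equal numbers the genes not listed again against RANKL were Nfkbia, Traf1, Traf2 and Traf5.

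Whether a gene with an untreated MAX peak was listed again went with the rank of that peak. A gene was counted as listed again through any peak in its window, as Chuk was with RANKL. Of the 15 genes with an untreated peak among the top 4419, all 15 were listed with RANKL and with I-BET, and 14 with the combination. Over all genes of this kind the shares were 97.8%, 99.9% and 88.1%. Of the 10 genes with lower-ranked untreated peaks 8 were listed with RANKL, 10 with I-BET and 3 with the combination (Rela, Tnf and Icam1). Over all genes these shares were 82.4%, 99.5% and 49.5%.

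A wider list of 73 other NF-kB genes gave the order of treatments seen over all genes, which is also the order of list length. No count with equal numbers of peaks was made for the wider list. MAX peaks were listed for 38 of them without treatment, 50 under RANKL, 67 under I-BET and 35 under the combination, to be read against the same 37.4%, 42.3%, 65.0% and 30.0% of all genes. With RANKL and not in untreated cells 14 were listed (19.2%, against 7.99% of all genes). Among them were Tnfrsf11a (the receptor of RANKL, rank 6121), Traf6 (its adaptor, rank 4972), Ikbke (rank 2799) and Il10 (rank 3795). Others of the 14 ranked near the end of the 10889 RANKL peaks, such as Irak3 (9587), Tlr9 (10510) and Il1a (10868). The genes no longer listed were 2, Sharpin and Tnip3 (2.74%, against 3.07%). With the combination 16 genes listed with RANKL were absent, Tnfrsf11a and Traf6 among them (21.9%, against 13.6% of all genes), and Saa3 alone was added (1.37%, against 1.35%). The best-ranked untreated receptor peaks lay at Tlr2 (rank 84), Ltbr (592) and Tnfrsf1b (2752), and those of adaptors at Ticam1 (602), Irak2 (698) and Ripk2 (770). In the ubiquitin group they were Commd1 (288, nearest to the chaperonin gene Cct4), Ube2n (596) and Ube2v1 (1713). Among further targets the best ranks belonged to windows of Cxcl16 (297), Lcn2 (650) and Csf3 (1130), but these peaks were nearest to Med11, Ptges2 and Med24. Il12a, Ccl12, Ccl17, Ccl22, Vcam1 and Nos2 had no MAX peak in any list.

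MYC peaks in this wider list were found at 3 genes, 2 of 73 without treatment, 1 under RANKL, 1 under I-BET and 0 under the combination, which is near the 2.05%, 2.02%, 0.434% and 0.0640% of all genes. Tlr2, the receptor for bacterial lipoproteins, had a MYC peak inside the gene in untreated cells (chr3:83839477-83839872, rank 15 of 312) and with RANKL (rank 105 of 299), and none with I-BET or the combination. Ube2n, the ubiquitin-conjugating enzyme of the TRAF pathway, had one in untreated cells (rank 272), 205 bp from the gene. Malt1 had a MYC peak of 69 bp with I-BET (rank 25 of 136), 3400 bp from the gene.

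**Figure D5:**
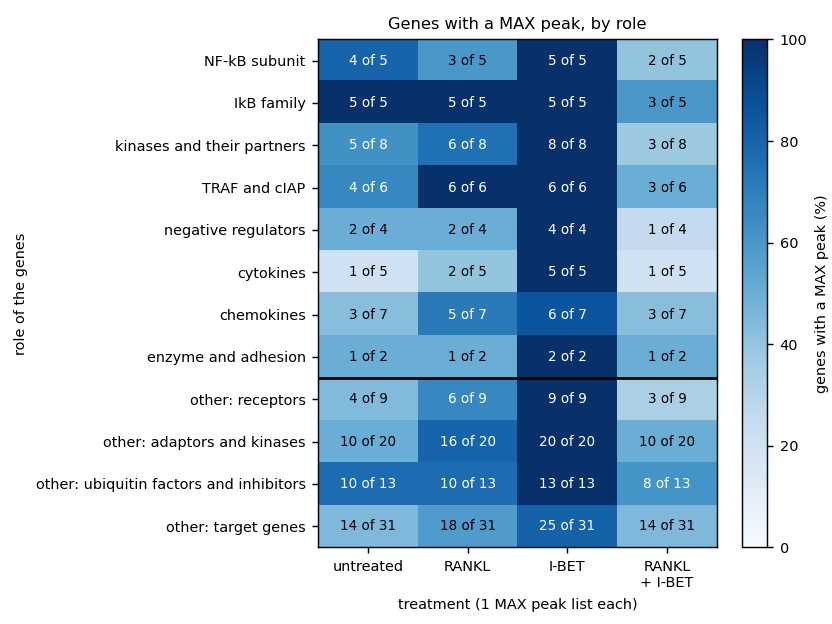
Number of genes with a MAX peak out of all genes of each role (rows, the NF-kB set above the line and the wider list below it) by treatment (columns), with the colour giving the share in %. The IkB family has 5 of 5 genes in the untreated, RANKL and I-BET columns, and cytokines have 1 of 5 in untreated cells and 5 of 5 with I-BET. In untreated cells Nfkbie and Bcl3 of the IkB family are counted through a peak in the flank only. Among all protein-coding genes 37.4%, 42.3%, 65.0% and 30.0% have a MAX peak, in the order of the columns.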

How the data were processed

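The 8 peak lists for MYC and MAX were used; the 4 input libraries were not analysed here. Groups came from the sample titles. The submitters' processing notes name Bowtie2 2.3.4.1, MACS2 2.1.1.20160309 and mm10. The deposited score of each peak is the authors' value and, with peaks of 3 call sets joined in every row, was used to rank peaks within a list. What the call sets are, the thresholds and any use of input: not given in the sources used here. File tags differ between the antibodies, which were not compared in number. Depth is unknown.

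Positions count from 1, taking the lists as BED. Peaks were joined to GRCm38.p6 gene extents plus 10 kb; a peak in several windows counts for each gene. The table has no strand, so a gene end can be a start or a 3′ end; starts come from the RefSeq promoter table. Motifs were searched on both strands. No test was run. The 42 genes, the wider list and the alternatives were chosen with earlier results of these data known. Named singly were genes with MYC, with MAX in all or no lists, or changed with RANKL; any further gene was picked with its values in view. Alternatives were a window of 2.5 kb, gene ends, the nearest gene, higher scores, equal numbers of peaks, 50% overlap and widths of 100 bp or more. The code (Python 3.11.15, numpy 2.4.6, pandas 2.3.3, scipy 1.17.1, matplotlib 3.10.9) was tested on simulated peaks and against bedtools 2.31.1.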

Additional observations from a re-analysis of the deposited data

Results flagged for a closer look

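The number of NF-kB genes with a MAX peak moved in opposite directions under the same agent in different company, which drew attention to it. RANKL added 5 genes to the count without I-BET (30 against 25), and the change was -24 in its presence (17 against 41). I-BET added 16 genes without RANKL (41 against 25), and the change was -13 in its presence (17 against 30). All protein-coding genes moved in the same directions: 37.4% had a MAX peak without treatment, 42.3% under RANKL, 65.0% under I-BET and 30.0% under the combination. Each count comes from 1 peak list, and the difference between these changes was not tested. With the 6307 top-ranked peaks of each list the counts were 18, 17, 18 and 17 for untreated cells, RANKL, I-BET and the combination.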

How the results depend on the processing

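With the higher-scoring part of each list, MAX was listed at 15 genes in untreated cells, 15 with RANKL and 9 with the combination. RANKL then added 3, and the combination against RANKL added 1 and removed 7. With equal numbers of top-ranked peaks, 17 genes had MAX with RANKL and 18 with I-BET. The genes added and removed were then 3 and 4 for RANKL, 6 and 6 for I-BET, 4 and 4 for the combination against RANKL, and 5 and 6 for it against I-BET. The cause was not tested beyond the smaller number of peaks in these settings. RefSeq promoter windows were a setting chosen after seeing the data. There, 14 of the 33 genes with a window had MAX without treatment, 17 under RANKL, 31 under I-BET and 11 under the combination. The shares of their 41 windows under a MAX peak were 36.6%, 43.9%, 87.8% and 29.3%. Those of all promoter windows were 15.3%, 18.3%, 35.6% and 11.8% in the same order. The MYC count of 1 with I-BET became 0 with a window of 2.5 kb, at gene ends, with higher scores and without peaks under 100 bp. Of the counts for the whole set under all alternatives, 89 stayed within 1.5 times and 23 did not. A window of 2.5 kb, gene ends, the nearest gene, 50% overlap and a width of 100 bp or more moved no MAX count beyond that. Without the I-BET list the number of genes listed in every remaining treatment stayed at 17. This could not have come out otherwise, since the combination list holds only these 17 genes, each also listed in the other treatments. No paired analysis was possible because each group has 1 list and the labels give no replicate numbers.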
